A study of Mus musculus with 24 samples.

Results

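The response of bone marrow to blood loss at 24 h was set against that of liver in the same study of mice without Erfe, over 16 of its 24 arrays. The members were chosen by sample title: marrow and liver, each at 0 h and at 24 h, with 4 arrays in each of these 4 groups. All mice were male and Erfe-/-, and their age is not given in the sources used here. The 0 h groups are labelled as controls, and the 24 h groups were bled through the retro-orbital sinus. Wild-type mice were not analysed here, so the deletion is shared by the bled mice and their controls. The design names 4 mice per time, and whether a marrow and a liver array of the same number come from 1 mouse is not stated.

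Bleeding lowers the oxygen supply to the kidney, which releases erythropoietin. Erythropoietin acts on erythroid progenitors of the marrow through its receptor, JAK2 and STAT5, and these cells divide, take up iron and build heme and globin. Erythroblasts normally also release erythroferrone, the product of Erfe, which acts on hepatocytes to lower hepcidin, the hormone that limits iron release into plasma. Liver and marrow are thus linked by this axis, and both are exposed to the same changes in plasma hormones, feeding and oxygen after a bleed. The integrated stress response is a further shared program: kinases that sense amino acid shortage, heme shortage or unfolded protein lead to translation of ATF4, which drives genes of amino acid synthesis, one-carbon metabolism and tRNA charging.

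Levels are log2 intensity after subtraction of each array's own 75th percentile, and a change is the 24 h mean minus the 0 h mean of a tissue. The difference described throughout is the marrow change minus the liver change. It was tested with limma as an interaction, and a gene was called at an adjusted p under 0.05. A gene counted as measured in a tissue where its probe was well above background on all 4 arrays of the 0 h or the 24 h group, and sizes are compared only for genes measured in both tissues. The 75th percentile lay at 373 to 438 intensity units on the 8 liver arrays and at 694 to 942 on the 8 marrow arrays. The median standard error was 0.12 for a change within either tissue and 0.18 for the difference between them.

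The labels were checked first. Of the 2 Erfe probes, 1 was not well above background on any of the 16 arrays. The other, on chromosome 1 at 93270468 to 93270527 (mm9), was above background only on marrow 24 h replicate 2, at -2.6, where every other marrow array lay at or below -7.04. For this probe the highest liver level was -5.93 at 0 h and -6.27 at 24 h. Whether the probes lie in the deleted part is not given in the sources used here, so they cannot settle the genotype of any array. The source of the signal on marrow 24 h replicate 2 was not tested. The same marrow array stood apart in another way. Over 22 hepatocyte markers its level had a median of 9.8% of the liver mean, with single markers from 6.74% to 37.3%. The medians of the other marrow arrays at 0 and 24 h were between 0.00827% and 0.0348%. Summed over the markers on the linear scale relative to the 75th percentile, marrow held 7.58 to 10.7 at 0 h and 7.97 to 9.17 at 24 h without that array, against 1490 on it. The liver arrays held 8750 to 10600 at 0 h and 8960 to 9560 at 24 h, with all 22 markers above background on every liver array. In marrow all 25 erythroid genes tested were above background on every array. Results are therefore given with all arrays and without marrow 24 h replicate 2.

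At 24 h Cda (pyrimidine salvage), Trib3 (stress response), Shmt2 (one-carbon metabolism) and Tars (tRNA charging) rose in marrow by 0.61 to 2.89 on the log2 scale and had a higher change there than in liver. H2-Ab1 (antigen presentation) and the lymphocyte genes Cxcr5, Cd8b1 and Ccr7 fell in marrow and had a lower change there than in liver. Without marrow 24 h replicate 2, Trib3, H2-Ab1 and Cxcr5 were no longer called in the interaction (adjusted p = 0.0505, 0.0541 and 0.0505, limma). Of 22660 genes tested, 79 were called in the interaction (0.349%): 49 had the higher change in marrow (0.216%) and 30 the lower (0.132%). Of the 18143 genes measured in both tissues, 66 were called (0.364%), 40 with a positive difference (0.22%) and 26 with a negative one (0.143%). The positive share of the 79 calls was 62%. It was 52.4% with quantile normalization within tissue, 54.3% with normexp, 55.2% in the authors' deposited table and 73.3% when arrays were scaled to their median. Without marrow 24 h replicate 2, 37 genes were called (0.163%), of which 29 were positive (0.128%) and 8 negative (0.0353%), and 31 genes were called with and without it. Of those 37, 22 positive (0.121%) and 7 negative genes (0.0386%) were measured in both tissues. The count rested on single arrays. It was 57 to 91 without liver 0 h replicate 1, liver 0 h replicate 3 or marrow 24 h replicate 3, and it rose to 145 and 182 without liver 24 h replicates 4 and 3. Without any 1 of the other 11 arrays it was 25 to 50, with the fewest calls without marrow 0 h replicate 2. With the replicate number as a block 9 genes were called, and 158 with the number as a random block.

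Within tissues the count differed more. Marrow alone had 211 called genes of 21232 tested (0.994%), of which 111 rose (0.523%) and 100 fell (0.471%), and 123 without replicate 2 (0.579%). It had 168 without marrow 24 h replicate 3 and 66 to 138 without any 1 of the other marrow arrays, the fewest without 0 h replicate 2. Liver alone had 0 called genes of 19571 by limma (0%), while 2190 had an unadjusted p under 0.05 (11.2%) and the smallest adjusted p was 0.282. Without liver 24 h replicate 4 it had 2. A call in marrow and none in liver is no test of a difference. Of the 147 genes called in marrow and measured in both tissues, 43 were also called in the interaction (0.364% of all genes measured in both). An unadjusted interaction p under 0.05 was found for 122 (12.3% of all genes measured in both). The marrow change is part of the interaction, so choosing genes by it favours both counts. Of the 147, 59 had a liver change of the same sign. Over the 18143 genes measured in both tissues, the marrow and liver changes had a Pearson correlation of 0.0228 and a Spearman correlation of -0.0035, and 49.6% of the genes had the same sign in both. Genes are not independent replicates, and the genes of a tissue share the same 8 arrays. The median change was -0.02 in marrow and -0.03 in liver, so a gene's change is close to its change relative to the typical gene.

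**Figure D1:**
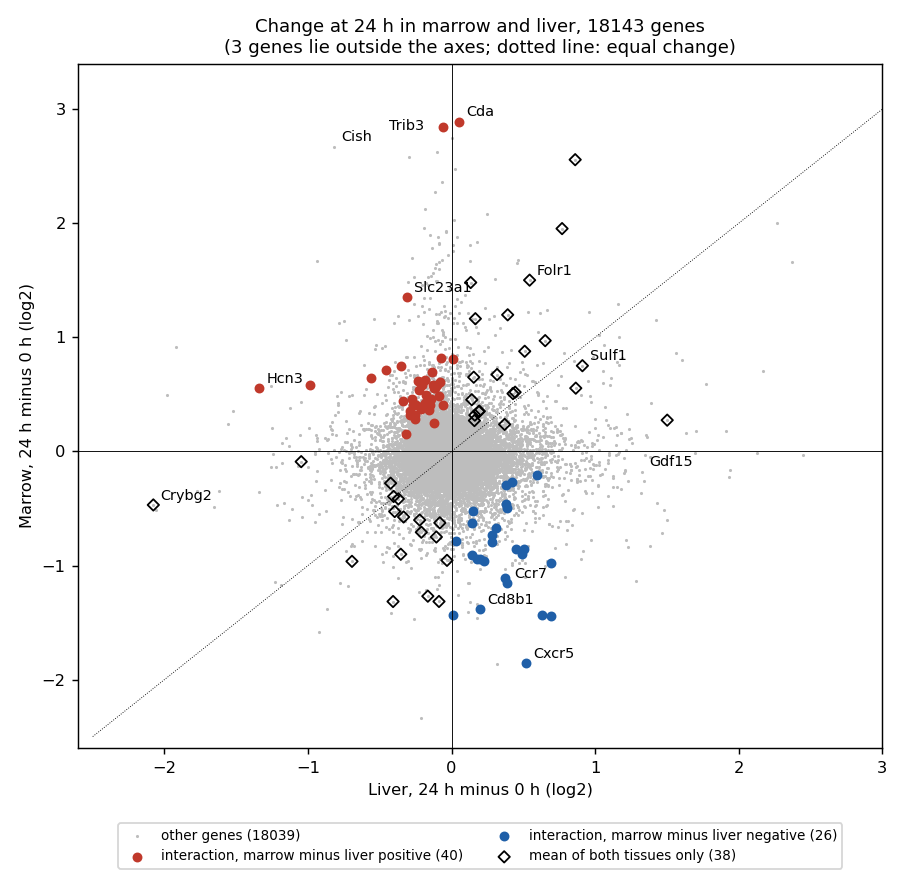
Each point is 1 of 18143 genes measured in both tissues, with its liver change from 0 to 24 h on the horizontal axis and its marrow change on the vertical axis (log2). Filled red and blue points are the 40 positive and 26 negative genes called in the interaction, open diamonds are genes called only in the mean of both tissues, the dotted line marks equal change, and 3 genes lie outside the axes. The called genes spread mainly along the vertical axis, while the cloud of all genes shows no slope.

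The 79 called genes were sorted by whether the 4 arrays of a tissue at 24 h all lay on one side of its 4 arrays at 0 h. By this count 56 genes were separated in marrow only, 33 positive and 23 negative. A further 21 were separated in both tissues in opposite directions, 16 positive and 5 negative, and 2 negative genes were separated in liver only, Klra4 and Nt5c3b. Nt5c3b was chosen after its values were seen. None of the 79 was separated in both tissues in the same direction. Measured in both tissues were 46 of the 56, 19 of the 21 and 1 of the 2, which leaves out Klra4. For the rest the sorting also used a tissue in which the gene was not measured. For all genes measured in both tissues, 7.62% were separated in marrow and 5.61% in liver, 0.276% were separated in both with opposite signs and 0.248% in both with the same sign. Without replicate 2 the 37 called genes comprised 25 separated in marrow only and 12 in both with opposite signs. Of these, 18 and 11 were measured in both tissues.

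The 40 positive genes measured in both tissues had a median change of 0.54 in marrow and -0.20 in liver. The 26 negative ones had medians of -0.88 in marrow and 0.37 in liver. Of the positive genes 38 had a liver change of the opposite sign to marrow, and so had all 26 negative genes. These signs follow in part from the choice of genes by the difference itself. A difference of at least 2-fold was reached by 8 of the positive and 17 of the negative genes. All 66 kept their sign within each of the 3 slides, every one of which carried both tissues. All 66 also kept it without marrow 24 h replicate 2, where 18 of the 40 and 5 of the 26 were still called. These arrays are part of those on which the genes were chosen, so the kept signs add no support. For the 22 genes named by rule and called in the interaction, an exact two-sided permutation test of marrow minus liver by replicate number gave p = 0.0286, the smallest that 4 against 4 values allow. These genes were chosen for this difference on these arrays, and the numbers are not known to pair the tissues, so that p adds no support.

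The positive genes named by rule include Cda, Slc23a1 and Hcn3. Cda encodes cytidine deaminase, an enzyme of pyrimidine salvage, and its probe lies on chromosome 4 at 137894742 to 137894801 (probe positions are mm9, as in the files). In marrow its 4 levels were -5.25, -5.18, -5.39 and -5.39 at 0 h and -2.48, -1.73, -3.01 and -2.44 at 24 h. In liver they were 1.29, 0.98, 1.14 and 0.96 at 0 h and 1.14, 1.13, 1.12 and 1.19 at 24 h. The marrow groups were far apart and the liver groups overlapped, with liver well above marrow throughout. Cda rose by 2.89 in marrow (adjusted p = 0.000554, limma) and differed by 0.05 in liver, so the difference was 2.84 (standard error 0.30, 95% interval 2.22 to 3.47, adjusted p = 9.07e-05). The probe cleared background on 1 of 4 marrow arrays before bleeding and on all 4 at 24 h, so the size rests on dim values: the difference was 1.37 with normexp background correction, where the gene was still called. Without replicate 2 the difference was 2.61 (adjusted p = 4.47e-05, limma).

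Slc23a1, a sodium-coupled vitamin C transporter, also had a higher change in marrow. Its marrow levels were -2.64, -2.33, -2.30 and -2.05 at 0 h and -0.81, -0.55, -1.5 and -1.05 at 24 h, and in liver it read 2.08, 2.07, 2.22 and 2.13 at 0 h and 1.82, 1.64, 1.95 and 1.84 at 24 h. Both pairs of groups were separated, upward in marrow and downward in liver. The rise in marrow was 1.35 (adjusted p = 0.00538, limma), liver changed by -0.31 without passing the test, and the difference was 1.66 (standard error 0.22, adjusted p = 0.000919; 0.00181 without replicate 2).

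Hcn3, a hyperpolarization-activated cation channel with its probe on chromosome 3 at 88950072 to 88950131, owed most of its difference to liver. In marrow it stood at -1.71, -1.66, -1.74 and -1.42 at 0 h and -1.08, -1.02, -1.23 and -0.98 at 24 h. Its liver levels were 1.29, 1.89, 1.48 and 1.88 at 0 h and 0.59, -0.04, -0.02 and 0.65 at 24 h. The arrays were separated upward in marrow and downward in liver. Hcn3 rose by 0.55 in marrow (adjusted p = 0.0411, limma), the liver change was -1.34 (adjusted p = 0.282), and the difference was 1.90 (standard error 0.25, adjusted p = 0.000919).

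**Figure D2:**
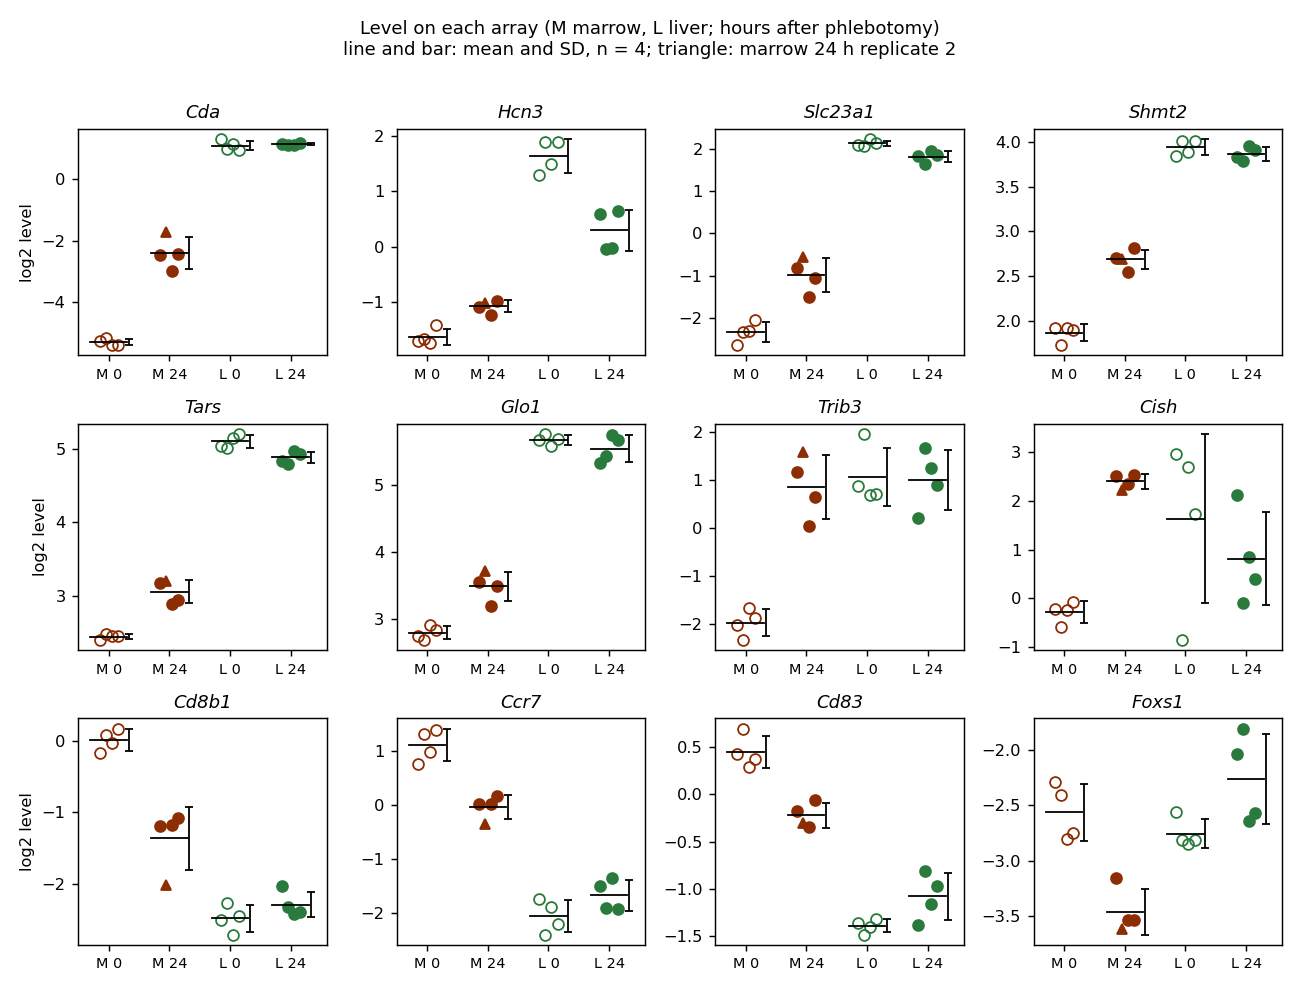
Log2 level on each of the 16 arrays for 12 genes, with marrow (M) in brown and liver (L) in green, open symbols at 0 h, filled symbols at 24 h, a triangle for marrow 24 h replicate 2, and a line and bar for the mean and SD (n = 4). Cda, Slc23a1, Shmt2, Tars, Glo1 and Trib3 lie higher at 24 h on all marrow arrays, Cd8b1, Ccr7, Cd83 and Foxs1 lie lower, and for Cish the 4 liver arrays at 0 h spread from -0.85 to 2.95.

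A few genes of the integrated stress response rose in marrow, and so did Tars. Of 19 members of the integrated stress response list measured in both tissues, 4 rose in marrow by its own test, Trib3, Asns, Shmt2 and Mthfd2 (0.523% of all genes tested in marrow), and 2 were called in the interaction, Trib3 and Shmt2 (0.22% of all genes measured in both were called positive). Without replicate 2 only Shmt2 was called. The list's median change was 0.16 in marrow and -0.01 in liver, against -0.02 and -0.03 over all genes, and its median difference was 0.10, so most members did not share the difference.

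Trib3 encodes a pseudokinase that ATF4 and CHOP induce, with its probe on chromosome 2 at 152163161 to 152163220. Marrow arrays gave -2.02, -2.34, -1.68 and -1.88 at 0 h and 1.18, 1.59, 0.04 and 0.66 at 24 h. In liver it stood at 0.89, 1.97, 0.70 and 0.71 at 0 h and 0.20, 1.67, 1.25 and 0.91 at 24 h. The marrow groups were separated and 3 of the 24 h marrow levels lay within the range of the liver arrays, whose groups overlapped. Trib3 rose by 2.85 in marrow (adjusted p = 0.00516, limma), and the difference was 2.91 (95% interval 1.77 to 4.04, adjusted p = 0.0234), or 7.49-fold. Without replicate 2, the marrow array with the highest Trib3 level, the difference was 2.66 and the adjusted p 0.0505.

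Shmt2, the mitochondrial serine hydroxymethyltransferase that feeds one-carbon metabolism, lies under a probe on chromosome 10 at 126954811 to 126954870. On the marrow arrays it lay at 1.92, 1.72, 1.92 and 1.90 at 0 h and 2.70, 2.69, 2.54 and 2.81 at 24 h, while its liver levels were 3.85, 4.01, 3.89 and 4.01 at 0 h and 3.83, 3.78, 3.95 and 3.91 at 24 h. The marrow groups were tight and separated, and the liver groups overlapped. The rise in marrow was 0.82 (adjusted p = 0.00381, limma), and the difference was 0.89 (standard error 0.12, adjusted p = 0.00163; 0.00455 without replicate 2). A second Shmt2 probe gave a difference of 0.84 and was not called.

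Mthfd2, the mitochondrial methylene-tetrahydrofolate dehydrogenase of the next step, rose from 0.79 ± 0.05 to 1.87 ± 0.13 in marrow (SD, n = 4, adjusted p = 0.000635, limma). Its liver change was 0.34, and the difference of 0.75 had a 95% interval of 0.11 to 1.38 and did not pass the test (adjusted p = 0.337). Asns, the asparagine synthetase gene, had marrow levels of 3.52, 3.42, 3.85 and 3.86 at 0 h and 4.69, 4.65, 4.33 and 4.71 at 24 h. The liver arrays read -0.29, 0.92, 0.56 and 1.29 at 0 h and 2.04, 1.0, 2.02 and 1.67 at 24 h, so the marrow groups were separated and the liver groups overlapped. Asns rose by 0.93 in marrow (adjusted p = 0.0196, limma; 0.0556 without replicate 2) and was 1.06 higher in liver, with a difference of -0.13 (95% interval -1.19 to 0.93).

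Tars, the threonyl-tRNA synthetase gene, was the synthetase with the largest difference among the genes named. Its probe lies on chromosome 15 at 11313527 to 11313586. In marrow its levels were 2.41, 2.49, 2.46 and 2.46 at 0 h and 3.18, 3.21, 2.90 and 2.96 at 24 h, and in liver 5.04, 5.0, 5.14 and 5.20 at 0 h and 4.83, 4.80, 4.96 and 4.92 at 24 h. Marrow was separated upward and liver downward. Tars rose by 0.61 in marrow (adjusted p = 0.0109, limma), the liver change was -0.22, and the difference was 0.82 (standard error 0.11, adjusted p = 0.000985; 0.00268 without replicate 2). Aars and Gars, which encode the alanyl- and glycyl-tRNA synthetases and were chosen after their values were seen, had differences of 0.67 (adjusted p = 0.0312, limma) and 0.52 (adjusted p = 0.0419). Without replicate 2 their adjusted p-values were 0.0583 and 0.0505. A second Aars probe gave a difference of 0.39 and was not called.

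Promoter windows of some of these genes are shown because Trib3, Gars and Tars carry in them the letters TGATGNAA, a core of the element that ATF4 and its partners bind. Windows of 30 bases are given 5′ to 3′ on the gene's strand from RefSeq promoters of GRCm38.p6, with the match on either strand in capitals, and Asns, a known target, beside them:
Trib3 (chr2:152344028-152344057, minus strand): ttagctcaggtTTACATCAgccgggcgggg
Gars (chr6:55037960-55037989, plus strand): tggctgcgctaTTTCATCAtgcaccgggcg
Tars (chr15:11399655-11399684, minus strand): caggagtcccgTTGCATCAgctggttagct
Asns (chr6:7693214-7693243, minus strand): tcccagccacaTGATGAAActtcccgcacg

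The match begins 15 bases after the start site in Trib3 and 30, 15 and 23 bases before it in Gars, Tars and Asns. Of the 49 genes called with a positive difference, 38 had a promoter of 250 bases before to 50 after the start site in the table, 44 promoters in all. TGATGNAA was found on either strand in 6 of the 44 (13.6%), those of Aars, Gars, Tars, Trib3 and Trim15, in 1 of the 19 promoters of 17 negative genes (5.26%), and in 3.97% of all 32851 promoters. No promoter of Shmt2 held it. Of the other motifs searched, the E-box CACGTG was in 27.3% of the positive and 15.8% of the negative promoters, against 7.15% of all. ACGTG, which CACGTG contains, was in 31.8% and 21.1%, against 19.6%. The STAT motif TTCNNNGAA was in 11.4% and 15.8%, against 8.3%, and the GATA motif AGATAA in 6.82% and 10.5%, against 11.2%. These are counts of letters in a window and were not tested.

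Cisd1, Rexo2, Glo1 and Hspd1 also had a higher change in marrow. Cisd1 encodes an iron-sulfur protein of the outer mitochondrial membrane (probe on chromosome 10, 70793535 to 70793594). The marrow arrays read 3.61, 3.59, 3.75 and 3.90 at 0 h and 4.36, 4.60, 4.08 and 4.30 at 24 h, and in liver it read 7.04, 6.83, 6.93 and 6.91 at 0 h and 6.56, 6.70, 6.86 and 6.85 at 24 h. The groups overlapped in liver and not in marrow. Cisd1 rose by 0.62 in marrow (adjusted p = 0.0254, limma; 0.0506 without replicate 2), and the difference was 0.81 (adjusted p = 0.0205; 0.0404 without replicate 2).

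Rexo2, an oligoribonuclease found in mitochondria (probe on chromosome 9, 48276913 to 48276972), rose from 2.32 ± 0.07 to 2.93 ± 0.15 in marrow (SD, n = 4, adjusted p = 0.0199, limma) and went from 2.85 ± 0.10 to 2.62 ± 0.26 in liver. Its difference was 0.85 (adjusted p = 0.023; 0.0227 without replicate 2). Glo1, the glyoxalase that clears methylglyoxal (probe on chromosome 17, 30731083 to 30731142), rose from 2.79 ± 0.10 to 3.48 ± 0.22 in marrow (adjusted p = 0.0149, limma). Its liver level was 5.68 ± 0.07 and then 5.55 ± 0.20, the difference was 0.83 (adjusted p = 0.0174; 0.0338 without replicate 2), and 2 further probes gave differences of 0.70 and 0.87.

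Of 13 heat shock genes, 1 was called with a positive difference (0.22% of all genes measured in both), Hspd1, the mitochondrial chaperonin HSP60. Its marrow levels were 4.51, 4.39, 4.49 and 4.65 at 0 h and 5.06, 4.96, 4.93 and 4.95 at 24 h, and in liver it read 6.29, 6.28, 6.30 and 6.42 at 0 h and 6.17, 6.05, 6.23 and 6.27 at 24 h. Marrow was separated upward and liver downward. Hspd1 rose by 0.46 in marrow (adjusted p = 0.0179, limma), the difference was 0.60 (adjusted p = 0.00499; 0.0108 without replicate 2), and the heat shock list had a median difference of 0.23, with 11 of 13 positive.

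Arhgdig, Ankrd36, Trim15, Stc1 and C2cd4a were measured in marrow only, so the interaction gives them a test and no size of the difference between tissues. Arhgdig (probe on chromosome 17, 26336228 to 26336287), had marrow levels of -3.64, -2.87, -3.21 and -2.99 at 0 h and 0.13, -0.42, -0.31 and -0.11 at 24 h. All 8 marrow values were above background, the groups were separated, and the rise was 3.0 or 8.02-fold (adjusted p = 6.8e-05, limma). No liver array was above background for it, and the interaction had an adjusted p of 0.000434.

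Ankrd36, Trim15 and Stc1 cleared background on 0 of 4 marrow arrays before bleeding, on all 4 at 24 h and on no liver array. Their rises in marrow are bounds. The 24 h mean is set against a floor for the 0 h arrays, which on each array is the dimmest signal that any probe above background had, or the gene's own signal where that is brighter. Ankrd36, an ankyrin repeat gene, was at least 9.56-fold higher (marrow adjusted p = 8.25e-05, limma). Trim15, a tripartite motif gene, was at least 6.03-fold higher (marrow adjusted p = 0.000554). Stc1, which encodes the secreted glycoprotein stanniocalcin, was at least 2.56-fold higher (marrow adjusted p = 0.000849). The interaction had an adjusted p of 2.01e-06 for Ankrd36 and of 0.000919 for Trim15 and Stc1. C2cd4a rose from -4.13 ± 0.20 to -1.31 ± 0.50 in marrow (SD, n = 4, adjusted p = 0.000635, limma), was above background on 2 of 4 liver arrays at either time, and had an interaction adjusted p of 0.0197.

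On the negative side, 9 of the 26 genes belonged to the lists of MHC class II genes, B cell markers and T and NK cell markers. Of these 9, only Cd8b1 was still called without replicate 2. MHC class II molecules present peptides on B cells, dendritic cells and macrophages, and Ciita is the coactivator that switches their genes on. Of 9 MHC class II genes measured in both tissues, 5 were called with a lower change in marrow, H2-Aa, H2-Ab1, H2-Eb1, H2-Ob and Ciita, against 0.143% of all genes measured in both. All 9 had a negative difference. By the marrow test 9 of the list's 11 genes fell, against 0.471% of all genes tested in marrow. The median change of the 9 was -0.91 in marrow and 0.20 in liver, and their median difference was -1.12. Without replicate 2 none of the 5 was called by limma, at adjusted p-values from 0.0541 to 0.0813, and the median difference was -1.03. The summed linear level of the 11 genes lay at 92.4 to 108 in marrow at 0 h and at 44.2 to 60 at 24 h, or 56.5 to 60 without replicate 2, and in liver at 39.5 to 65.8 and then at 49.7 to 73.4.

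H2-Ab1, the beta chain of I-A, shows the pattern on single arrays. In marrow it stood at 5.12, 5.14, 4.95 and 5.18 at 0 h and 4.29, 3.90, 4.16 and 4.25 at 24 h, and in liver it read 4.57, 3.80, 4.37 and 4.42 at 0 h and 4.69, 4.64, 4.16 and 4.37 at 24 h. Marrow was separated and liver overlapped, with replicate 2 the lowest of the 24 h marrow arrays. The difference was -1.12 (adjusted p = 0.0258, limma; 0.0541 without replicate 2). Ciita went from 1.44 ± 0.23 to 0.47 ± 0.22 in marrow and from -0.03 ± 0.24 to 0.20 ± 0.31 in liver (SD, n = 4), with a difference of -1.19 (adjusted p = 0.0422; 0.0813 without replicate 2).

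Of 13 B cell markers measured in both tissues 2 were called, Cxcr5 and Bank1, both with a lower change in marrow (0.143% of all genes measured in both), and none of them without replicate 2. Cxcr5 is the chemokine receptor that guides B cells to follicles. Marrow arrays gave -1.30, -0.48, -0.88 and -0.24 at 0 h and -2.93, -3.29, -2.18 and -1.92 at 24 h, and in liver it read -4.10, -5.42, -4.24 and -4.62 at 0 h and -3.85, -4.22, -3.92 and -4.32 at 24 h. Marrow was separated and liver overlapped, and in liver 3 of 4 arrays cleared background at 0 h. Cxcr5 fell by 1.86 in marrow (adjusted p = 0.0256, limma), and its difference was -2.38 (adjusted p = 0.0258; 0.0505 without replicate 2). Bank1, a B cell scaffold protein, had a difference of -1.07 (adjusted p = 0.0372; 0.0712 without replicate 2) and did not pass the marrow test. The list's median difference was -1.07 with all arrays and -1.01 without replicate 2, and 12 of 13 differences were negative.

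Of 13 T and NK cell markers measured in both tissues 2 were called, Cd8b1 and Cd2, both lower (0.143% of all genes measured in both). Of these Cd8b1 was still called without replicate 2 (0.0386%). Cd8b1 encodes the beta chain of the CD8 coreceptor (probe on chromosome 6, 71286937 to 71286996). On the marrow arrays it lay at -0.17, 0.08, -0.02 and 0.17 at 0 h and -1.19, -2.03, -1.17 and -1.08 at 24 h, and in liver it read -2.52, -2.27, -2.71 and -2.46 at 0 h and -2.03, -2.32, -2.43 and -2.39 at 24 h. Only the marrow groups were separated. Cd8b1 fell by 1.38 in marrow (adjusted p = 0.00935, limma), and the difference was -1.58 (95% interval -2.12 to -1.04, adjusted p = 0.00818; -1.36 and 0.00492 without replicate 2). Cd2, an adhesion receptor of T and NK cells, had a difference of -1.36 (adjusted p = 0.0312; 0.0581 without replicate 2). All 13 differences were negative, with a median of -0.76 and of -0.66 without replicate 2.

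**Figure D3:**
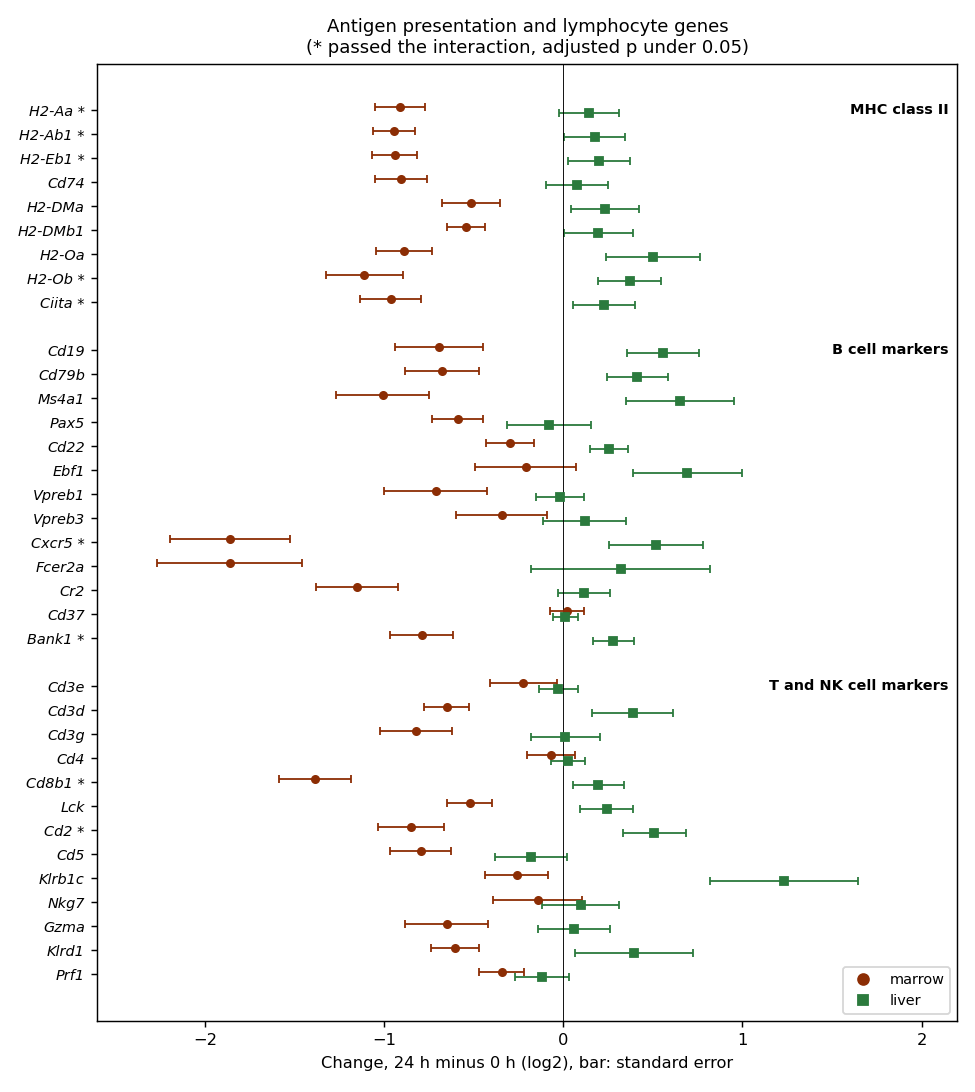
Change from 0 to 24 h (log2, bar: standard error) in marrow (brown circles) and liver (green squares) for MHC class II genes, B cell markers and T and NK cell markers measured in both tissues, with an asterisk for genes called in the interaction. Nearly all marrow values lie left of 0, most liver values lie at or right of it, and the 9 called genes are among those with the widest gap.

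Ccr7 and Cd83 were the other immune genes named by rule. Ccr7 is the receptor that draws T cells and dendritic cells to lymph nodes (probe on chromosome 11, 99005551 to 99005610). The marrow arrays read 0.76, 1.33, 0.99 and 1.40 at 0 h and 0.03, -0.36, 0.02 and 0.17 at 24 h, and in liver it read -1.75, -2.41, -1.89 and -2.22 at 0 h and -1.5, -1.92, -1.36 and -1.94 at 24 h. Marrow was separated and liver overlapped. Ccr7 fell by 1.16 in marrow (adjusted p = 0.0124, limma), and the difference was -1.55 (adjusted p = 0.00818; 0.0202 without replicate 2). A second Ccr7 probe gave -1.91 and was not called.

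Cd83, a surface protein of activated dendritic cells and B cells (probe on chromosome 13, 43898276 to 43898335), had marrow levels of 0.42, 0.69, 0.29 and 0.38 at 0 h and -0.18, -0.30, -0.35 and -0.06 at 24 h. Its liver levels were -1.36, -1.48, -1.40 and -1.32 at 0 h and -1.38, -0.81, -1.15 and -0.97 at 24 h. Marrow was separated and liver overlapped on 1 array. Cd83 fell by 0.67 in marrow (adjusted p = 0.0109, limma), and the difference was -0.98 (adjusted p = 0.00428; 0.0108 without replicate 2).

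In bulk RNA, fewer cells of a type and less RNA per cell cannot be told apart. The summed B cell markers lay at 79 to 131 in marrow at 0 h and at 58.6 to 87.7 at 24 h, which overlap, and at 8.23 to 9.05 and 8.83 to 10.6 in liver. The summed T and NK cell markers lay at 31.1 to 38.6 and 22 to 30.6 in marrow, which do not overlap, and at 39 to 49.7 and 43.3 to 46.7 in liver. All 18 B cell and 15 T and NK cell markers tested were above background on every marrow array, and 3 of each list were above background on no liver array at 0 h. The part of cell composition in these differences was not tested.

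Among 17 monocyte and macrophage markers measured in both tissues, 0 were called in the interaction by limma and 8 had an unadjusted p under 0.05, against 12.3% of all genes measured in both. Their median change was -0.32 in marrow and 0.09 in liver. Hmox1, the heme oxygenase of macrophages that degrade red cells, fell from 4.58 ± 0.28 to 3.27 ± 0.31 in marrow (SD, n = 4, adjusted p = 0.00697, limma) and went from 2.54 ± 0.42 to 2.46 ± 0.25 in liver. Its difference of -1.23 missed the threshold (adjusted p = 0.0639; 0.114 without replicate 2), and the mean of both tissues was -0.70 (adjusted p = 0.0416; 0.0731 without replicate 2).

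Outside the immune system the negative genes included Adamts15 and Foxs1. Adamts15 encodes a secreted metalloprotease (probe on chromosome 9, 30707033 to 30707092). Its marrow levels were -3.67, -2.59, -3.23 and -3.35 at 0 h and -3.94, -3.79, -4.67 and -4.35 at 24 h, and in liver it read -3.23, -4.12, -3.10 and -3.76 at 0 h and -2.95, -2.42, -2.93 and -3.15 at 24 h. Marrow was separated downward and liver overlapped on 1 array. The changes were -0.98 in marrow (adjusted p = 0.0827) and 0.69 in liver (adjusted p = 0.348), each short of its own threshold, and the difference was -1.67 (adjusted p = 0.0392, limma; 0.0404 without replicate 2), or -0.74 with normexp. Adamts15 was called under 17 of the 31 alternatives that gave it a value. Foxs1, a forkhead transcription factor gene (probe on chromosome 2, 152757838 to 152757897), fell by 0.90 in marrow (adjusted p = 0.0321, limma), was 0.49 higher in liver and had a difference of -1.39 (adjusted p = 0.0197; 0.0422 without replicate 2), or -0.82 with normexp.

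Of the 3089 genes measured in marrow only, 11 were called in the interaction (0.356%), and of the 1428 measured in liver only 2 were called (0.14%). The named genes of the former with a negative difference were Klra7, Klra4 and Tceal6. Klra7 and Klra4 encode Ly49 receptors of NK cells, a family of near-identical genes whose probes may share signal. Klra7 (probe on chromosome 6, 130168899 to 130168958) had marrow levels of -0.66, -0.47, -0.67 and -0.51 at 0 h and -1.22, -1.30, -0.80 and -0.80 at 24 h. In liver it stood at -4.97, -5.85, -5.36 and -6.28 at 0 h, all below background, and -4.73, -3.90, -4.49 and -3.64 at 24 h, above background on 3 of 4. The groups were separated downward in marrow and upward in liver, where the level was at least 1.21-fold higher, and the interaction had an adjusted p of 0.0197 (0.0422 without replicate 2). For Klra4 and Tceal6 the adjusted p was 0.0365 with all arrays and 0.0669 without replicate 2. Tceal6 fell from -1.83 to -2.87 in marrow (adjusted p = 0.0341, limma).

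Cish and Pim1, targets of erythropoietin signalling, rose in marrow without passing the test against liver. Cish encodes a feedback inhibitor of STAT5 signalling (probe on chromosome 9, 107204196 to 107204255). Its start site is shown because it holds a pair of STAT motifs within 30 bases of RefSeq sequence (capitals, TTCNNNGAA):
Cish (chr9:107296654-107296683, plus strand, GRCm38.p6): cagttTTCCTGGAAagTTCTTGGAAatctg

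Cish levels in marrow were -0.21, -0.59, -0.23 and -0.07 at 0 h and 2.51, 2.21, 2.34 and 2.52 at 24 h. In liver they were 2.95, -0.85, 2.69 and 1.73 at 0 h and 2.11, -0.10, 0.85 and 0.39 at 24 h. The marrow groups were tight and far apart, and the liver groups overlapped over a wide range. Cish rose by 2.67 in marrow (adjusted p = 1.05e-05, limma), and its liver change was -0.82 with a standard error of 0.82. The difference was 3.49, with a 95% interval of 1.64 to 5.33, and it missed the threshold (adjusted p = 0.0894).

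Pim1, a kinase induced by STAT5, had marrow levels of 3.79, 3.43, 3.62 and 3.80 at 0 h and 4.94, 4.89, 4.58 and 4.87 at 24 h, and liver levels of 1.54, 2.45, 2.02 and 1.86 at 0 h and 2.23, 2.54, 1.94 and 1.84 at 24 h. The groups overlapped in liver and not in marrow. The rise in marrow was 1.16 (adjusted p = 0.000849, limma), and the difference of 1.0 had a 95% interval of 0.47 to 1.53 and an adjusted p of 0.0909. Socs2 and Socs3, further feedback inhibitors of cytokine receptors, had differences of 0.18 (adjusted p = 0.924) and 0.29 (adjusted p = 0.857). Of 7 STAT5 targets measured in both tissues, 0 were called in the interaction by limma, 2 had an unadjusted p under 0.05 (12.3% of all genes measured in both), and 2 rose in marrow (0.523% of all genes tested there).

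Tfrc, the transferrin receptor through which erythroblasts take up iron, had similar estimates in both tissues. In marrow it stood at 3.12, 3.25, 3.24 and 3.46 at 0 h and 4.26, 4.12, 3.77 and 4.09 at 24 h, and in liver it read -1.17, -0.18, -0.86 and -1.74 at 0 h and 0.22, 0.17, -0.03 and -0.91 at 24 h. Marrow was separated, and liver overlapped through its replicate 4 at 24 h. Tfrc rose by 0.79 in marrow (adjusted p = 0.0154, limma) and was 0.85 higher in liver (adjusted p = 0.421). The difference was -0.06 with a 95% interval of -0.90 to 0.78, and the mean of both tissues was 0.82 (adjusted p = 0.0938).

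Of 14 erythroid genes measured in both, 0 were called in the interaction by limma, 2 had an unadjusted p under 0.05 (12.3% of all genes measured in both), and the medians were 0.00 in marrow and 0.04 in liver. Of 9 heme synthesis genes 0 were called and 3 had an unadjusted p under 0.05, with medians of 0.21 in marrow and -0.07 in liver and 7 positive differences. The 5 globin genes measured in both tissues had a median change of -0.10 in marrow and 0.46 in liver. None was called by limma, all 5 had an unadjusted p under 0.05, and 4 were separated upward in liver (2.02% of all genes measured in both). The summed globin level lay at 357 to 436 in liver at 0 h and at 520 to 563 at 24 h, and in marrow at 2050 to 2640 and 2110 to 2300.

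The genes of iron and hepcidin regulation could be compared only in part. Hamp, which encodes hepcidin, was not measured in marrow: its probe was above background on marrow 24 h replicate 2 alone, at 3.54. In liver its change was -0.52 (adjusted p = 0.614). Id1, a BMP target that follows the same signal in hepatocytes, changed by -0.02 in marrow and -0.22 in liver, and its difference was 0.21 (adjusted p = 0.884). Fgl1, a hepatocyte secreted protein, had a marrow change of 4.99 with all arrays and 2.96 without replicate 2 (adjusted p = 0.0506), and its difference was 3.63 (adjusted p = 0.45) and then 1.60. On replicate 2 its level was 4.50, and a second probe gave a difference of -0.17. In marrow at 0 h Fgl1 lay at -4.68 on replicate 1 and at -7.47 to -7.03 on the others. The dimmest probe above background on those others lay at -5.34 to -5.0. The sizes given for Fgl1 in marrow thus rest on 0 h values below background.

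Gdf15, a stress cytokine also made by erythroblasts, had marrow levels of -2.09, -1.79, -1.81 and -2.13 at 0 h and -1.74, -1.22, -3.07 and -2.5 at 24 h. The liver arrays read 0.18, 1.36, 0.21 and -0.27 at 0 h and 1.67, 1.67, 1.21 and 2.23 at 24 h. The marrow groups overlapped and the liver groups overlapped on 1 array, at 0 h replicate 2. The liver change was 1.33 (adjusted p = 0.311), and the difference of -1.5 had a 95% interval of -2.52 to -0.48 and an adjusted p of 0.201. Of the 7 BMP and SMAD targets and the 16 iron handling genes measured in both tissues, 0 were called in the interaction by limma, with 0 and 2 at an unadjusted p under 0.05 and median differences of 0.17 and 0.09.

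Clock genes and glucocorticoid targets gave no call in the interaction. Dbp, a clock output gene, changed by 0.75 in marrow and 1.16 in liver, with a difference of -0.41 (adjusted p = 0.761) and a mean of both tissues of 0.96 (adjusted p = 0.0612). Per1 changed by -0.60 and -0.34, with a difference of -0.25 (adjusted p = 0.914). Fkbp5, a chaperone induced by glucocorticoids, stood at 1.90 ± 0.14 and then 2.47 ± 0.22 in liver (SD, n = 4), where the groups were separated, and changed by -0.06 in marrow. Its difference was -0.63, with a 95% interval of -1.01 to -0.25 and an adjusted p of 0.139. Of the 13 clock genes and the 12 glucocorticoid targets 0 were called in the interaction by limma, with 0 and 3 at an unadjusted p under 0.05.

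**Figure D4:**
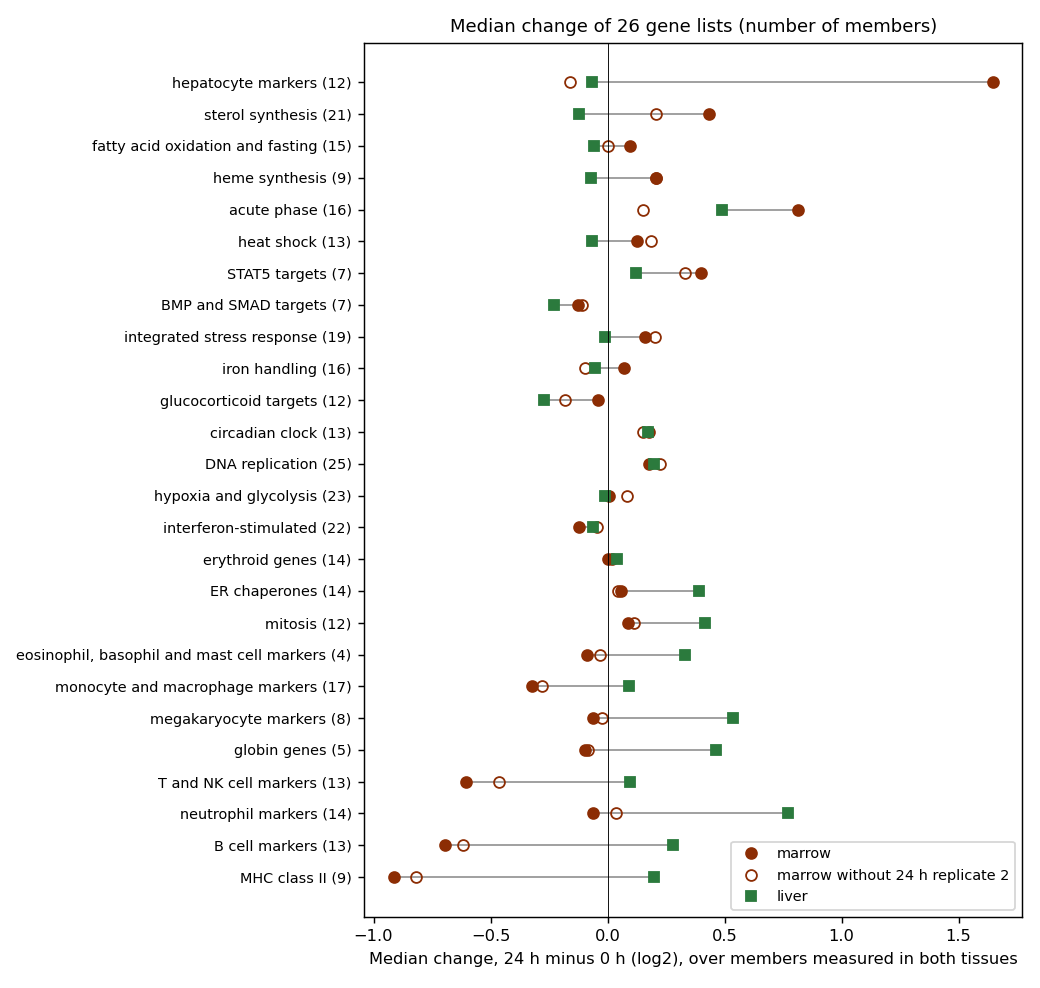
Median change from 0 to 24 h (log2) of each of 26 gene lists over the members measured in both tissues, whose number stands in brackets, in marrow with all arrays (filled circles), in marrow without 24 h replicate 2 (open circles) and in liver (squares). MHC class II, B cell and T and NK cell lists lie lowest in marrow, the neutrophil and megakaryocyte lists have the highest medians in liver, and the hepatocyte list falls from 1.64 to below 0 in marrow without replicate 2.

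Changes common to both tissues were tested as the mean of the marrow and the liver change. This test uses the same arrays as the interaction. It called 43 of 18143 genes (0.237%), of which 25 were higher at 24 h (0.138%) and 18 lower (0.0992%), and 28 without replicate 2 (0.154%), with 23 called in both fits. It called 29 to 46 without liver 0 h replicate 1 or 2 or liver 24 h replicate 3, 71 without liver 24 h replicate 4, and 16 to 28 without any 1 of the other arrays, with 16 without liver or marrow 0 h replicate 4. With the replicate number as a block it called 4 genes, and 16 with the number as a random block. Of the 43, 38 were not called in the interaction, and all 38 had the same sign in both tissues (0.209%). Of these 38, 12 were separated the same way in both (0.0661%). The choice of genes by the mean of both changes favours equal signs. The 5 genes called both here and in the interaction were Cda, Trib3, Shmt2, Akr1b8 and Arrdc4, of which Akr1b8 and Arrdc4 were chosen after their values were seen.

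Sulf1, an enzyme that trims sulfate from heparan sulfate and so alters growth factor binding (probe on chromosome 1, 12850302 to 12850361), was higher in both tissues. Marrow arrays gave -1.52, -1.41, -1.69 and -1.43 at 0 h and -0.58, -0.93, -0.79 and -0.74 at 24 h, and in liver it read -3.75, -3.35, -3.04 and -2.89 at 0 h and -2.5, -2.10, -2.23 and -2.56 at 24 h. Both tissues were separated upward. Sulf1 rose by 0.75 in marrow (adjusted p = 0.00366, limma), was 0.91 higher in liver (adjusted p = 0.311), and had a mean of both of 0.83 (adjusted p = 0.00733; 0.0123 without replicate 2), or 0.48 with normexp.

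Gss, the glutathione synthetase gene (probe on chromosome 2, 155388927 to 155388986), had marrow levels of 1.62, 1.5, 1.62 and 1.78 at 0 h and 2.63, 2.90, 2.22 and 2.28 at 24 h. Its liver levels were 3.99, 4.18, 3.87 and 3.96 at 0 h and 4.59, 4.75, 4.38 and 4.33 at 24 h. Both tissues were separated upward. The mean of both was 0.69 (adjusted p = 0.00929, limma; 0.0177 without replicate 2), from a change of 0.88 in marrow and 0.51 in liver.

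Folr1, a folate receptor, changed by 1.5 in marrow and 0.54 in liver, with a mean of both of 1.02 (adjusted p = 0.0195, limma; 0.0288 without replicate 2), or 0.62 with normexp. Crls1, the cardiolipin synthase gene, changed by 0.24 and 0.37, with a mean of 0.30 (adjusted p = 0.0182; 0.0384 without replicate 2). Cenpu, a centromere protein gene, changed by 0.27 in marrow and was at least 1.48-fold higher in liver, where 0 of 4 arrays cleared background at 0 h and all 4 did at 24 h (mean of both adjusted p = 0.034, limma; 0.046 without replicate 2). With normexp its mean of both was 0.25 and was not called. Tie1, a receptor of endothelial cells, changed by 0.35 and 0.19, and its adjusted p of 0.0416 became 0.0667 without replicate 2.

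Crybg2 was lower in both tissues (probe on chromosome 4, 133648063 to 133648122). On the marrow arrays it lay at -2.93, -3.18, -2.86 and -2.94 at 0 h and -3.44, -3.66, -3.41 and -3.27 at 24 h, and in liver it read -2.56, -3.02, -3.24 and -2.66 at 0 h and -5.62, -5.41, -4.47 and -4.29 at 24 h, when 1 of 4 was above background. Both tissues were separated downward. The fitted mean of both had an adjusted p of 0.00733 (limma; 0.0177 without replicate 2). It was -1.27, and -0.49 with normexp, and its liver part rests largely on values that were not above background. Prr5, a component of mTOR complex 2, changed by -0.57 in marrow and -0.33 in liver, with a mean of -0.45 (adjusted p = 0.0122; 0.0264 without replicate 2). Klhl8, an adapter of cullin ubiquitin ligases, and Foxn3, a forkhead repressor, had means of -0.39 (adjusted p = 0.0385) and -0.35 (adjusted p = 0.0394), which became 0.0581 and 0.0555 without replicate 2.

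**Figure D5:**
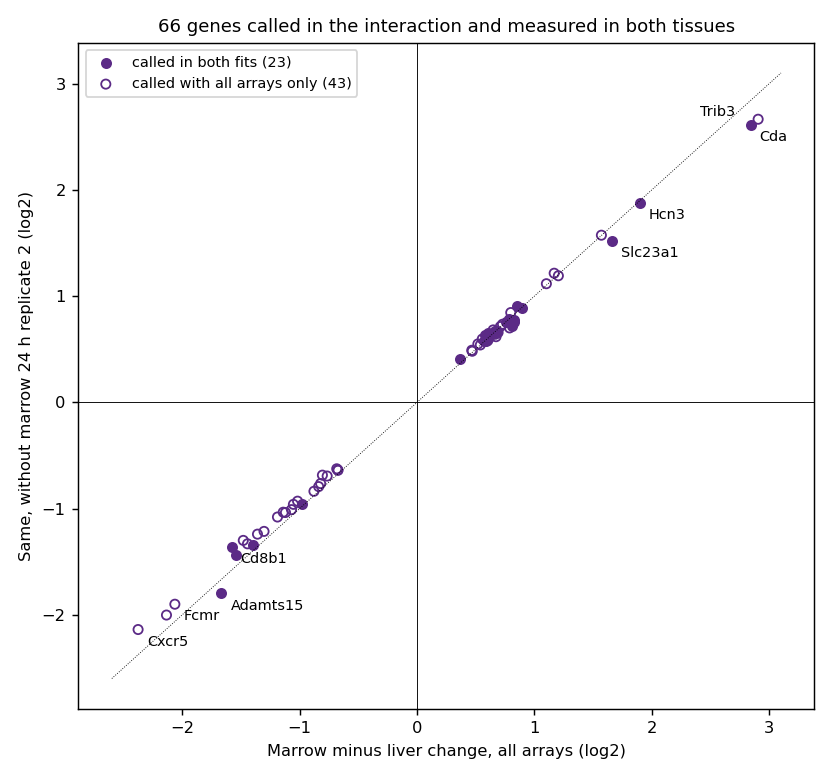
Difference between the marrow and the liver change (log2) for the 66 genes called in the interaction and measured in both tissues, with all arrays on the horizontal axis and without marrow 24 h replicate 2 on the vertical axis. Filled points are the 23 genes called in both fits, and open points those called with all arrays only. Every point lies in the quadrant of its original sign near the dotted line of equal values, which the choice of genes on all arrays favours.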

How the data were processed

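RNA of 24 samples was measured on single-colour Agilent arrays. The authors extracted spot intensity with Agilent Feature Extraction 10.10.1.1, per the submitters' processing notes. This intensity is background subtracted within an array, per the file headers, and arrays were not normalized to each other. The authors' deposited table of log2 values, of unstated scaling, served only as an alternative.

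From log2 of the processed intensity, each array's 75th percentile over non-control, non-outlier spots was subtracted. Each gene was represented by 1 probe: probes measured in both tissues first, then the highest mean over the 16 arrays at 0 and 24 h. The interaction and the mean of both tissues were fitted with limma 3.58.1 in R 4.3.3 over all 24 arrays, with 48 h in the fit, and single tissues over 12. P-values were adjusted by Benjamini-Hochberg. Scripts were tested on simulated data. P-values measure the spread between the arrays of a group, pooled over the groups of a fit. The fits over both tissues take arrays as independent, although a marrow and a liver array may come from 1 mouse.

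Members and lists were chosen with earlier results of these data known. Genes named are Erfe, 14 candidates, the 8 called genes in either direction with the largest difference that were still called without marrow 24 h replicate 2 (5 on the negative side), the 5 with the smallest p in either direction measured in marrow only or liver only, the 6 shared genes with the smallest p in either direction, and called list members; predicted genes were passed over. Alternatives covered background, scaling, filter, probes, slide, replicate number, variance model, weights and arrays. Whether probes lie in exons or untranslated regions was not analysed here.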

Additional observations from a re-analysis of the deposited data

Results flagged for a closer look

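The tested difference between tissues set apart 79 genes. With their marrow minus liver differences (log2), the positive genes named by rule were Trib3 at 2.91, Cda at 2.84, Hcn3 at 1.90, Slc23a1 at 1.66, Shmt2 at 0.89, Rexo2 at 0.85, Glo1 at 0.83, Tars at 0.82 and Cisd1 at 0.81. Trib3, a candidate, was not called without marrow 24 h replicate 2 (adjusted p = 0.0505, limma), and the rest were. The negative genes named by rule were Adamts15 at -1.67, Cd8b1 at -1.58, Ccr7 at -1.55, Foxs1 at -1.39 and Cd83 at -0.98. Larger negative differences whose call was lost without that array, such as Cxcr5 at -2.38 and Fcmr at -2.06, are not among them. Genes measured in marrow only have a test and no size. For those named by rule, the interaction adjusted p-values (limma) were 2.01e-06 for Ankrd36, 0.000434 for Arhgdig, 0.000919 for Stc1 and Trim15 and 0.0197 for C2cd4a, all positive, and 0.0197 for Klra7 and 0.0365 for Klra4 and Tceal6, all negative.

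Single arrays stood apart from the other 3 of their group. Marrow 24 h replicate 2 did so for Fgl1 at 4.50 (others -3.87 to -3.19), Hamp at 3.54 (others -7.96 to -6.43), Cd8b1 at -2.03 (others -1.19 to -1.08) and Prr5 at -0.90 (others -0.60 to -0.55). Marrow 24 h replicate 3 was low for Asns at 4.33 (others 4.65 to 4.71). At 0 h, marrow replicate 1 was high for Fgl1 at -4.68 (others -7.47 to -7.03), and marrow replicate 2 was low for Shmt2 at 1.72 (others 1.90 to 1.92). Among the liver arrays at 0 h, replicate 2 was high for Trib3 at 1.97 (others 0.70 to 0.89), replicate 1 for Foxs1 at -2.56 (others -2.85 to -2.81) and for Cenpu at -4.82 (others -5.65 to -5.52), and replicate 3 for Klhl8 at -0.95 (others -1.10 to -1.08). Liver 24 h replicate 4 was low for Dbp at 0.02 (others 1.13 to 1.16). Dixon's test at its 95% level picks out some such arrays by chance in any set of groups this large.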

How the results depend on the processing

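Of the values of named genes recomputed under alternatives, 1238 kept their direction and side of the threshold, 170 lost the threshold, 2 gained it and 0 reversed. The count of 79 interaction calls became 127 with normexp, 30 with median scaling, 154 in the authors' values, 22 without a filter, 14 on the 16 arrays alone, 119 with a trended and robust variance and 66 with the slide as a block. Of genes measured in both tissues, 66 calls became 21 with median scaling, 7 on 16 arrays and 106 with the trended variance. The 43 calls in the mean of both tissues became 65 with normexp, 100 in the authors' values, 22 without a filter, 69 when only genes measured in both were tested and 11 on 16 arrays. The 211 marrow calls became 65 without a filter and 351 with array weights. Leaving out 1 array at a time gave 25 to 182 interaction calls, 17 to 160 among genes measured in both, 16 to 71 in the mean, 66 (without marrow 0 h replicate 2) to 168 in marrow, and 0 to 2 in liver, where the 2 came without liver 24 h replicate 4. Marrow and liver arrays of a number shared deviations weakly (r = 0.0063 to 0.191 over 8 pairs, 6 of 8 highest with their own number). This does not settle whether they come from 1 mouse, and the main fits take all arrays as independent. The replicate number as a block gave 9 interaction calls, 3 among genes measured in both and 4 in the mean, and as a random block 158, 138 and 16. Scaling moved the median difference of all genes between -0.02 and 0.07. The cause of these shifts was not tested beyond the smaller number of genes or arrays that an alternative itself sets. The percentile over probes and the lists and classes without marrow 24 h replicate 2 were chosen after seeing the data. For genes not above background in liver, depth allows no size of the difference.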

Other observations

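The sterol synthesis list, genes that make cholesterol under control of SREBP2, had a higher median change in marrow than in liver, with no member called. Of 21 measured in both tissues, 0 were called in the interaction by limma, 11 had an unadjusted p under 0.05 (12.3% of all genes measured in both) and 20 had a positive difference. Their median change was 0.43 in marrow and -0.12 in liver, and their median difference was 0.54 and 0.32 without marrow 24 h replicate 2, against 0.00 over all genes. Lists with a higher median change in liver were ER chaperones, which fold secreted proteins (14 genes, medians 0.06 in marrow and 0.39 in liver, 13 negative differences), and mitosis genes (12 genes, 0.09 and 0.42, all 12 negative). In these lists 0 were called in the interaction by limma, and 1 and 0 had an unadjusted p under 0.05.

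Markers of blood cells other than lymphocytes also had higher median changes in liver. The 14 neutrophil markers had medians of -0.06 in marrow and 0.77 in liver, and their summed linear level in liver was 89.8 to 136 at 0 h and 112 to 166 at 24 h, which overlap. The 8 megakaryocyte markers had medians of -0.06 and 0.54, and their summed level in liver was 2.64 to 3.78 and then 4.06 to 5.34. The 4 eosinophil, basophil and mast cell markers had medians of -0.09 and 0.33. In these lists 0 genes were called in the interaction by limma, with 1, 4 and 1 at an unadjusted p under 0.05 (12.3% of all genes measured in both).

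The 12 hepatocyte markers measured in both tissues had a median difference of 1.72 with all arrays and -0.12 without marrow 24 h replicate 2, and the 16 acute phase genes 0.28 and -0.18. Fatty acid oxidation and fasting genes (15) had 0.37 and 0.04, hypoxia and glycolysis genes (23) -0.03 and 0.01, DNA replication genes (25) -0.03 and 0.02, and interferon-stimulated genes (22) -0.05 and 0.03. None of these was called in the interaction by limma with all arrays. There 0 hepatocyte, 2 acute phase, 3 fatty acid, 3 hypoxia, 1 DNA replication and 0 interferon genes had an unadjusted p under 0.05 (12.3% of all genes measured in both). Without marrow 24 h replicate 2, 1 of the 21 fatty acid oxidation and fasting genes tested was called with a positive difference (0.128% of all genes tested).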
